A study of Homo sapiens with 12 samples.

Results

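The protein arginine methyltransferases and a pair of partners of PRMT5 were followed across 4 groups of K562 cells, a human erythroleukemia line. The set held PRMT1, PRMT2, PRMT3, CARM1, PRMT5, PRMT6, PRMT7 and PRMT9, with the PRMT5 partners WDR77 and CLNS1A. Every probe annotated with 1 of these 10 symbols was taken, which gave 15 of the 47231 probes on the array. Of these, 14 were bright enough to be tested and covered all 10 genes; the dimmest of 3 PRMT6 probes was not tested.

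RNA was measured on 12 Illumina BeadChip arrays, 3 in each group: AE9a-expressing cells given an siRNA against PRMT1 (siPRMT1), AE9a-expressing cells given control siRNA, wild type cells given siPRMT1, and wild type cells given control siRNA. All 4 groups were grown in the same medium, received 3 µg of siRNA by nucleofection and were harvested at 24 hours, per the labels' protocols. AE9a is a shorter splice product of AML1-ETO, which joins RUNX1 to RUNX1T1 in a subtype of acute myeloid leukemia. Neither the promoter that drives AE9a nor whether the line is 1 clone is stated in the labels. The labels do not say whether replicates were separate cultures, so p-values cover only array-to-array spread within this experiment, which may be technical.

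Arginine methyltransferases move methyl groups from S-adenosylmethionine to arginine side chains of histones, RNA-binding proteins and many other proteins. Type I enzymes (PRMT1, PRMT2, PRMT3, CARM1, PRMT6) leave asymmetric dimethylarginine, and PRMT1 is the main source of that mark in mammalian cells. Type II enzymes (PRMT5, PRMT9) leave symmetric dimethylarginine, and PRMT7 leaves monomethylarginine. PRMT5 works as a complex with WDR77 (also called MEP50), and CLNS1A (pICln) is an adaptor that brings it the Sm proteins of the spliceosome. PRMT1 and PRMT5 are both studied as dependencies of leukemia cells.

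Median raw intensity ran from 60.5 to 74.3 across the 12 arrays. With no detection p-values, the 95th percentile of 437 olfactory receptor probes, 66.7 to 79.5 per array, stood in for background. All 14 tested probes lay above it on all 12 arrays, whereas the untested PRMT6 probe lay between 38.2 and 50.3, below it on each. The 7 measured erythroid markers were above that level on all 12 arrays. Of 11 T cell, B cell and monocyte markers on the array, CD3D (548.3 to 2874.3), CD2 (83.8 to 102.4) and CD14 (71.1 to 121.2) were above it on all 12 arrays, 4 on 7 to 11 arrays, MS4A1 on 3, and CD3E, PAX5 and CSF1R on 0. The hepatocyte marker ALB (120.0 to 267.2) was above it throughout. Summed raw intensity of the 4 monocyte markers was 1058.9 to 1150.5 in AE9a siPRMT1 arrays and 804.7 to 1113.1 in AE9a controls, against 247.6 to 339.1 in wild type siPRMT1 arrays and 281.0 to 446.5 in wild type controls. LYZ carried that gap, with 798.6 to 927.9 and 578.4 to 839.0 in AE9a siPRMT1 and AE9a control arrays, against 60 to 77 and 68.2 to 113.4 in wild type siPRMT1 and wild type control arrays, while the other 3 overlapped between the lines; their part in the differences between lines was not tested. Of the erythroid markers, HBE1 read 27735.7 to 31117 in AE9a arrays, against 2786.3 to 4402.9 in wild type arrays. HBZ read 23849.9 to 26946.7 in AE9a arrays, against 7400.4 to 17498.7 in wild type arrays. The rest of the erythroid markers overlapped between the lines, and the part of this gap in other line differences was not tested. RUNX1T1 probes read above background on at most 1 array, so they do not check the AE9a label, and where they lie relative to the fusion is not stated. The 1 RUNX1 probe above background on all 12 arrays was higher in AE9a than wild type arrays by 0.45 ± 0.13 under siPRMT1 (log2, adjusted p = 0.0221), a call lost without AE9a siPRMT1 2 or 3 or wild type siPRMT1 2 or 3; it had 0.33 ± 0.13 under control siRNA (adjusted p = 0.0854). On the second principal component, with 15.8% of the variance, wild type control 3 scored -15.8, among the wild type siPRMT1 arrays and away from the other wild type controls. Calls and values that this array moves most are given with and without it. It was singled out by these same data, so fits without it describe its weight and are no separate support. Wild type siPRMT1 3, which scored -18.0, stayed in those fits. In these bulk samples fewer cells making an RNA and less RNA per cell cannot be told apart.

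PRMT1, the siRNA's target, was lower in siPRMT1 arrays of AE9a cells. Its raw intensity was 461.4, 467.9 and 525.8 in the AE9a siPRMT1 arrays, against 793.8, 816.8 and 695.3 in AE9a controls. The wild type arrays read 1269.7, 1003.6 and 902.3 under siPRMT1, against 1166.2, 1338.7 and 1832 in controls. The groups did not overlap in AE9a cells and did overlap in wild type cells. On average 63.1% of the control signal was left in AE9a cells and 73.2% in wild type cells. The normalized change was -0.61 ± 0.16 in AE9a cells (log2 ± SE, adjusted p = 0.0211 by limma, n = 3 arrays a group) and -0.46 ± 0.16 in wild type cells (adjusted p = 0.486). In wild type cells the unadjusted p of PRMT1 was 0.0114 by limma, and the smallest adjusted p of any tested probe was 0.138. Without wild type control 3, which had the highest PRMT1 signal of all arrays, the wild type value was -0.29 ± 0.14 (adjusted p = 0.292). The AE9a call was lost in 4 of 12 fits that left out 1 array, those without AE9a siPRMT1 1 or 2 (adjusted p = 0.0739 and 0.075) or AE9a control 1 or 2 (adjusted p = 0.0657 and 0.0846). In the difference between lines, PRMT1 had -0.14 with a 95% interval from -0.63 to 0.34, and -0.31 ± 0.19 without wild type control 3 (adjusted p = 0.506).

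**Figure D1:**
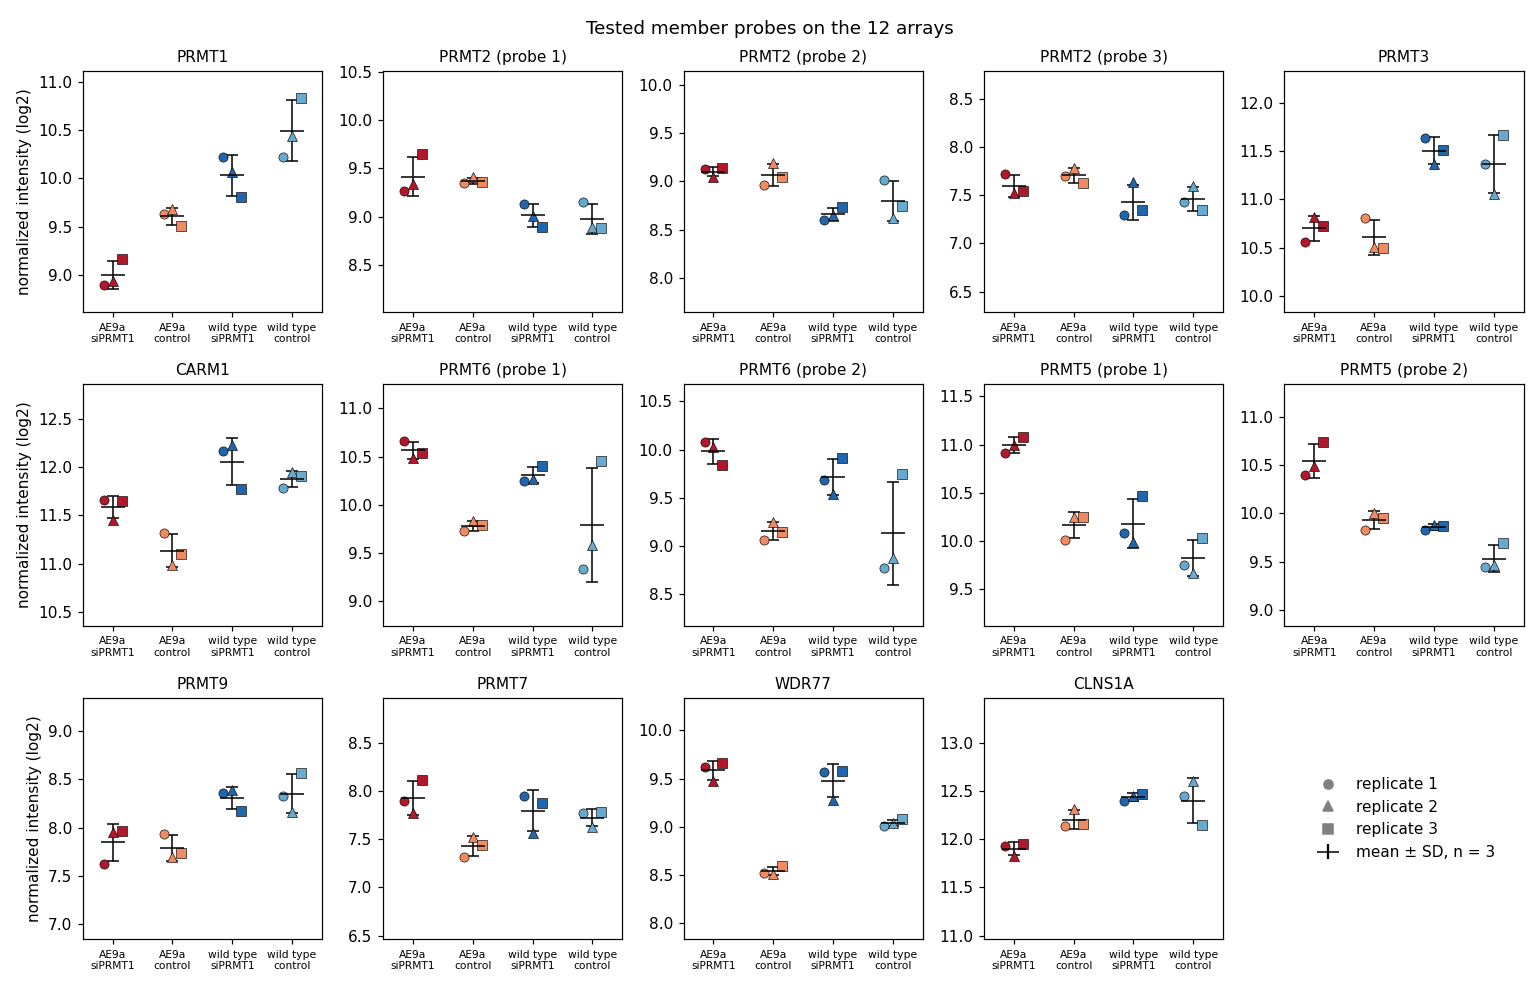
Normalized intensity (log2) of each tested probe of the 10 genes in every array, with 1 point per array and the group mean ± SD. Groups run from AE9a siPRMT1 at the left to wild type controls at the right. The 3 AE9a siPRMT1 arrays are the lowest for PRMT1, at 8.89 to 9.16, and the highest for the brighter PRMT5 probe, at 10.91 to 11.08.

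In AE9a cells the family did not move as a block. PRMT5 and its partner WDR77, both tested PRMT6 probes, PRMT7 and CARM1 rose under siPRMT1, while PRMT1 fell. That is 7 of 14 probes higher and 1 lower, from 6 of the 10 genes; among all 28338 tested probes 13.8% were called, 6.42% higher and 7.39% lower. The median of the 14 probes was 0.27 (log2), beside 0.01 over all tested probes. Without AE9a siPRMT1 1 or 2 or AE9a control 1 or 3 the count fell to 4 of 14, and without AE9a siPRMT1 3 or AE9a control 2 to 5. Calls over all probes fell as well, from 3913 to 2079 without AE9a siPRMT1 3. They fell to 2599, 2254 and 2214 without AE9a control 1, 2 and 3. No probe was called in wild type cells by limma, 0 of 14 beside 0% of all, although an unadjusted p under 0.05 was found for 6 of the 14 and for 2471 of all. With control 3 left out of the wild type group, 850 of all probes were called there, among them 2 of the 14, both of PRMT6.

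Among the other type I enzymes PRMT6 moved most. PRMT6 methylates histone H3 and is known as a transcriptional repressor in many settings. Its brightest probe read 1644.6, 1410.2 and 1409.6 in AE9a siPRMT1 arrays, against 851.0, 914.1 and 856.1 in AE9a controls. The same probe read 1290.1, 1167.8 and 1375 in wild type siPRMT1 arrays, against 631.2, 747.0 and 1395.4 in wild type controls. The AE9a groups were apart, while among wild type arrays control 3 alone reached into the siPRMT1 range. The next PRMT6 probe had the same shape, with 1090.7, 1025.4 and 853.8 in AE9a siPRMT1 arrays, against 535.7, 605.6 and 545.5 in AE9a controls. Wild type arrays read 881.6, 704.7 and 964.5 under siPRMT1, against 428.8, 458.3 and 846.6 in controls.

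For these PRMT6 probes the change in AE9a cells was 0.78 ± 0.21 (adjusted p = 0.0232) and 0.83 ± 0.21 (adjusted p = 0.0161). Wild type cells had 0.52 ± 0.21 (adjusted p = 0.520) and 0.58 ± 0.21 (adjusted p = 0.503). The wild type values leaned on wild type control 3. Without it they were 0.85 ± 0.12 (adjusted p = 0.00519 by limma) and 0.88 ± 0.13 (adjusted p = 0.00732). That array was singled out by these same data, so this fit is no separate support for a rise. With all arrays kept and a term for replicate number in wild type arrays, the adjusted p was 0.145 and 0.102. The difference between lines was 0.27 ± 0.30 and 0.25 ± 0.29 over all arrays, and -0.07 and -0.06 without that array. In AE9a cells the call was lost without any 1 of the 6 AE9a arrays for the brightest probe ( adjusted p at most 0.0754) and without AE9a siPRMT1 1 or 2 or AE9a control 1 or 3 for the next (adjusted p at most 0.0592).

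CARM1, a coactivator that methylates histone H3 and splicing factors, read 3385.1, 2812.4 and 3094.4 in AE9a siPRMT1 arrays, against 2552, 2020.9 and 2119.7 in AE9a controls. It read 4901.6, 4566.3 and 3575 in wild type siPRMT1 arrays, against 3504, 3779.8 and 3854 in wild type controls. Only the AE9a groups were apart. CARM1 rose by 0.45 ± 0.13 in AE9a cells (adjusted p = 0.0386), and its value in wild type cells was 0.18 ± 0.13 (adjusted p = 0.732). Of the 12 fits without 1 array 5 lost the CARM1 call, those without AE9a siPRMT1 1, 2 or 3 (adjusted p = 0.116, 0.0524 and 0.136) or AE9a control 2 or 3 (0.163 and 0.126). It was also lost with the authors' processed values (adjusted p = 0.0547) and with all probes tested (adjusted p = 0.0652).

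PRMT3, a cytosolic enzyme that methylates the ribosomal protein RPS2, read 1534.6, 1770.5 and 1603.6 in AE9a siPRMT1 arrays, against 1773.2, 1441.3 and 1388.6 in AE9a controls. It read 3398.2, 2531.6 and 2977 in wild type siPRMT1 arrays, against 2628, 2073 and 3221.7 in wild type controls. The siRNA groups overlapped in both lines, while every AE9a array lay below every wild type array. The siPRMT1 values of PRMT3 were 0.10 ± 0.15 in AE9a cells and 0.14 ± 0.15 in wild type cells.

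PRMT2, a type I enzyme with weak activity of its own that binds nuclear receptors, had 3 probes. The brightest read 600.8, 618.8 and 742.6 in AE9a siPRMT1 arrays, against 649.9, 672.5 and 623.7 in AE9a controls. Wild type arrays read 601.3, 483.2 and 462.3 under siPRMT1, against 556.4, 462.4 and 447.2 in controls. The groups overlapped in each line. The other PRMT2 probes ran from 501.0 to 541.5 and from 159.3 to 195.8 in AE9a siPRMT1 arrays, against 500.3 to 583.0 and 184.3 to 212.3 in AE9a controls. They ran from 374.3 to 410.8 and from 142.6 to 178.9 in wild type siPRMT1 arrays, against 384.7 to 508.1 and 143.4 to 181.7 in wild type controls. The siPRMT1 values in AE9a cells were 0.04, 0.03 and -0.11 for the 3 probes, with SEs of 0.13, 0.12 and 0.12, and the first and second of these turned sign in some of the other settings run. The wild type values were 0.04, -0.13 and -0.04, with the same SEs.

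PRMT5, the main type II enzyme, rose under siPRMT1 in AE9a cells by both of its probes. The brighter probe read 1945.5, 2000.1 and 2053.1 in AE9a siPRMT1 arrays, against 1030.2, 1211.2 and 1170.7 in AE9a controls. Wild type arrays read 1162.3, 959.5 and 1446.3 under siPRMT1, against 843.7, 792.9 and 1030.7 in controls. The AE9a siPRMT1 arrays were higher than all 9 others, and the wild type groups overlapped.

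The dimmer PRMT5 probe read 1362.4, 1415.2 and 1620 in AE9a siPRMT1 arrays, against 909.2, 1029 and 959.6 in AE9a controls. Wild type arrays read 967.0, 886.8 and 941.7 under siPRMT1, against 677.0, 693.6 and 817.6 in controls. By this probe the groups were apart in both lines. The change in AE9a cells was 0.83 ± 0.14 for the brighter probe (adjusted p = 0.00218) and 0.61 ± 0.12 for the dimmer (adjusted p = 0.00451). Both PRMT5 calls were kept without each of the 12 arrays in turn, with adjusted p of at most 0.0148 and 0.0292. The wild type values were 0.36 ± 0.14 (adjusted p = 0.517) and 0.33 ± 0.12 (adjusted p = 0.506). Without wild type control 3 they were 0.46 (adjusted p = 0.101) and 0.41 (adjusted p = 0.0862). The difference between lines was 0.47 for the brighter probe, with a 95% interval from 0.03 to 0.90 and an adjusted p of 0.342, and 0.28 for the dimmer.

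WDR77, the WD-repeat protein that binds PRMT5 and its substrates, had the largest change of the 10 genes in AE9a cells. It read 775.8, 687.0 and 749.8 in AE9a siPRMT1 arrays, against 367.6, 357.5 and 369.5 in AE9a controls. It read 814.4, 584.6 and 773.7 in wild type siPRMT1 arrays, against 505.4, 511.3 and 520.1 in wild type controls. The siPRMT1 arrays lay above the controls in both lines, and the AE9a controls were the lowest group. WDR77 rose by 1.04 ± 0.11 in AE9a cells (2.06-fold, adjusted p = 1.18e-04), place 74 among all tested probes by p. That call was kept without each of the 12 arrays, with an adjusted p of at most 0.0015. Its wild type value was 0.43 ± 0.11, with an unadjusted p of 0.00189 and an adjusted p of 0.442 by limma, and 0.45 (adjusted p = 0.0644) without wild type control 3.

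In the difference of the siPRMT1 effect between lines, 0 of the 14 probes were called, beside 0.917% of all tested probes (0.3% with a higher and 0.618% with a lower AE9a effect, and with median scaling 11.9% of the calls were higher, beside 32.7%), and 3 of the 14 had an unadjusted p under 0.05. WDR77 had the smallest p, with 0.61 ± 0.16 and a 95% interval from 0.26 to 0.95 (unadjusted p = 0.00212, adjusted p = 0.102 by limma). Same-numbered wild type arrays deviated alike from their group means, a pattern read from these same arrays and not given by the labels. With a replicate block there, WDR77 passed (adjusted p = 0.0290). It also passed without an intensity trend in the variance (adjusted p = 0.0387). The other pair was the brighter PRMT5 probe, given above, and PRMT7 (0.43, 95% interval from 0.03 to 0.82, adjusted p = 0.334).

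The start sites of both genes that form the methylosome lie head to head with a neighbour, and the bases between the paired starts are shown since PRMT5 and WDR77 are the members whose AE9a calls stood without each array. Both are from RefSeq on GRCh38.p14, minus strand, read 5′ to 3′ towards PRMT5 or WDR77. PRMT5 shares chr14:22929377-22929608, 232 bases, with the divergent transcript PRMT5-DT, and capitals mark 3 CCAAT boxes, read here on the opposite strand. WDR77 shares chr1:111449257-111449463, 207 bases, with ATP5PB, a subunit of the mitochondrial ATP synthase, and capitals mark 3 stretches that hold TCGCGAGA on either strand, overlapping matches joined.
PRMT5: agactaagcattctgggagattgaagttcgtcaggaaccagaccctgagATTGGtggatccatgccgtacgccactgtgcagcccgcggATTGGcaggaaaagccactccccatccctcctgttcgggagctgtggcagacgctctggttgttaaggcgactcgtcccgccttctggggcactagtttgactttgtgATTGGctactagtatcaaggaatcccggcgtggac
WDR77: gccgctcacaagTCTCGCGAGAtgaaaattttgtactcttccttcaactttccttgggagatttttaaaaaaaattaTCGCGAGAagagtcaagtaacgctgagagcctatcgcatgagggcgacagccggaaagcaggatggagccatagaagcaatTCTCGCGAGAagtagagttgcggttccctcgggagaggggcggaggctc
CCAAT was present on either strand in the 250 bases before the start of 32% of 35116 RefSeq promoters, and TCGCGAGA, a motif picked after this sequence was read, in 1.03%. Of the 10 members, PRMT1 and PRMT5 held CCAAT and WDR77 alone held TCGCGAGA. The GC box GGGCGG was present in 7 of 10 members, beside 42.6% of all promoters. The RUNX motif TGTGGT, read on both strands, was in 0 of the 10 members and in 11% of all promoters. The E-box CACGTG was in PRMT3 alone, beside 6.34% of all promoters. These are letter matches in a window and not measured sites. The neighbour ATP5PB had 0.22 ± 0.12 (adjusted p = 0.266) and 0.12 ± 0.12 (adjusted p = 0.595) for its probes under siPRMT1 in AE9a cells, where WDR77 had 1.04.

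CLNS1A, the other PRMT5 partner, did not rise with them. It read 4089, 3653.6 and 3771.5 in AE9a siPRMT1 arrays, against 4483, 5054.7 and 4394.5 in AE9a controls. It read 5717.4, 5370.2 and 5845 in wild type siPRMT1 arrays, against 5601.6, 5989.8 and 4416.8 in wild type controls. The AE9a groups were apart, with siPRMT1 lower, but the value of -0.30 ± 0.12 did not pass (adjusted p = 0.109), and in wild type cells it was 0.04 ± 0.12. The AE9a value passed without wild type control 3 (adjusted p = 0.0324), with array weights (adjusted p = 0.0120) and with AE9a arrays alone (adjusted p = 0.0281).

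PRMT7, which forms monomethylarginine, read 221.9, 200.4 and 244.7 in AE9a siPRMT1 arrays, against 156.1, 175.2 and 161.2 in AE9a controls. It read 252.8, 168.4 and 216.3 in wild type siPRMT1 arrays, against 208.1, 184.6 and 199.7 in wild type controls. PRMT7 rose by 0.50 ± 0.13 in AE9a cells (adjusted p = 0.0197), a call lost without AE9a siPRMT1 3 (adjusted p = 0.101) or without AE9a control 1 or 3 (adjusted p = 0.0822 and 0.0639), and with median scaling (adjusted p = 0.0575). The wild type groups overlapped, with a value of 0.07 ± 0.13.

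PRMT9, a further type II enzyme whose known substrate is the splicing factor SF3B2, read 183.2, 231.4 and 218.8 in AE9a siPRMT1 arrays, against 242.9, 197.7 and 198.5 in AE9a controls. It read 341.3, 310.7 and 270.8 in wild type siPRMT1 arrays, against 313.5, 274.7 and 356.2 in wild type controls. The siRNA groups overlapped in both lines, with values of 0.06 ± 0.14 in AE9a cells and -0.04 ± 0.14 in wild type cells. As for PRMT3, every AE9a array lay below every wild type array.

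**Figure D2:**
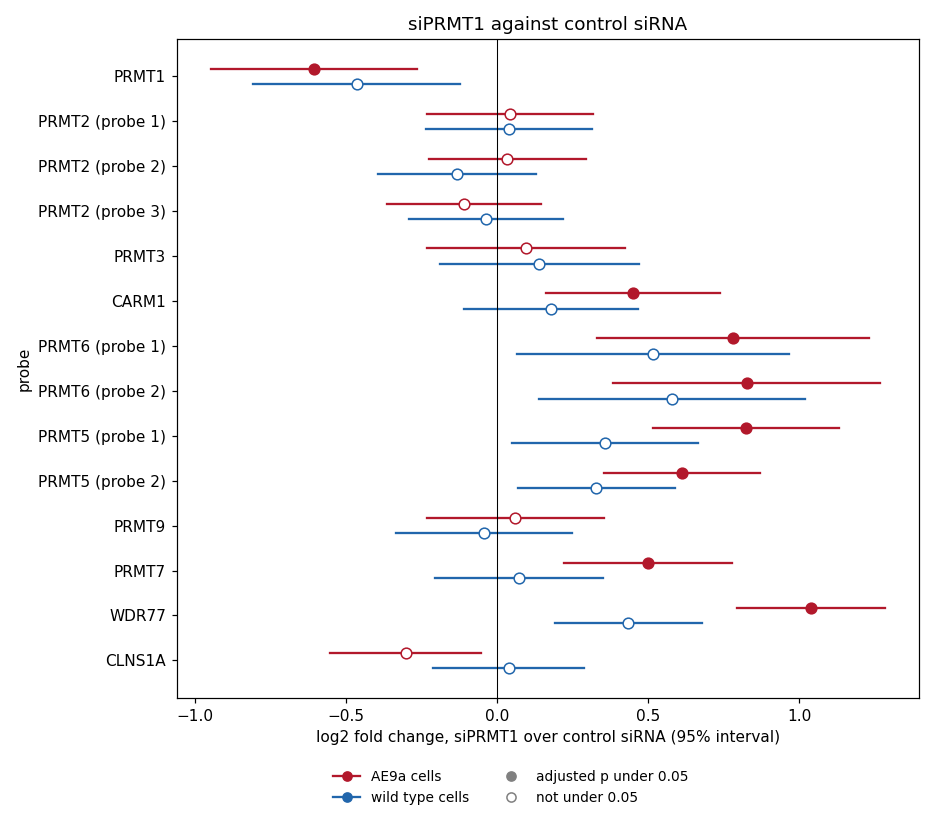
Change under siPRMT1 against control siRNA for each tested probe (log2, with its 95% interval from the limma fit), AE9a cells above wild type cells in each row, filled where the adjusted p is under 0.05. Filled points lie in AE9a cells alone, with WDR77 at 1.04 and PRMT1 at -0.61 as the ends of the range.

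**Figure D3:**
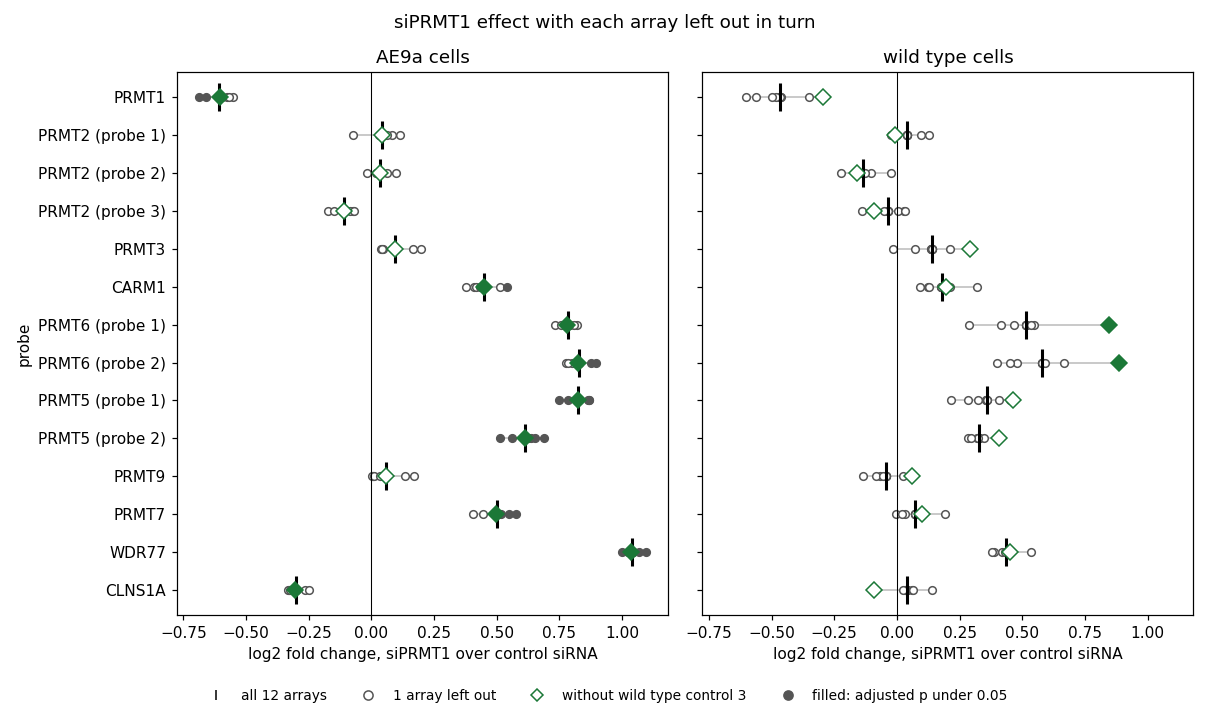
Change under siPRMT1 (log2) for each tested probe when each of the 12 arrays is left out in turn, with 1 panel per line, 1 point per fit and filled points where the adjusted p is under 0.05. WDR77 and both PRMT5 probes stay filled in all 12 fits in AE9a cells, and in wild type cells the filled points are PRMT6 without wild type control 3.

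The lines themselves differed over much of the family. Under siPRMT1, 4 of 14 probes were higher and 5 lower in the AE9a line, beside 24.7% of all tested probes called (11.9% higher, 12.8% lower). Under control siRNA 2 were higher and 5 lower, beside 26.7% of all (13.2% higher, 13.4% lower). With median scaling, 61.3% of all calls under control siRNA were higher in AE9a cells, beside 49.6% with quantile normalization. These comparisons use the same arrays as the siRNA comparisons, so they are not separate evidence.

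The genes PRMT1, PRMT3, CARM1 and PRMT9, were lower in AE9a cells under both siRNAs. PRMT1 was lower by -1.03 ± 0.16 under siPRMT1 (adjusted p = 2.54e-04) and -0.89 ± 0.16 under control siRNA (adjusted p = 7.77e-04). PRMT3 had -0.80 ± 0.15 (adjusted p = 0.00139) and -0.76 ± 0.15 (adjusted p = 0.00193) under siPRMT1 and control siRNA. CARM1 had -0.47 ± 0.13 under siPRMT1 (adjusted p = 0.0179) and -0.75 ± 0.13 under control siRNA (adjusted p = 8.03e-04). PRMT9 had -0.46 ± 0.14 (adjusted p = 0.0229) and -0.56 ± 0.14 (adjusted p = 0.00663) under siPRMT1 and control siRNA. The CARM1 and PRMT9 calls under siPRMT1 were each lost in 3 of the 12 fits without 1 array: for CARM1 without AE9a siPRMT1 2 or wild type siPRMT1 1 or 2 (adjusted p up to 0.085), and for PRMT9 without AE9a siPRMT1 1 or wild type siPRMT1 1 or 2 (adjusted p up to 0.11).

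PRMT5 was higher in AE9a cells. Under siPRMT1 it was higher by 0.81 ± 0.14 (adjusted p = 7.58e-04) and 0.68 ± 0.12 (adjusted p = 7.89e-04) for the brighter and the dimmer probe. Under control siRNA the dimmer probe was higher by 0.40 ± 0.12 (adjusted p = 0.0247), a call lost without AE9a control 2 or 3 or wild type control 1 or 2 (adjusted p up to 0.0991) and with all probes tested (adjusted p = 0.0597). The brighter probe had 0.35 ± 0.14 there (adjusted p = 0.0961) and passed with the replicate block in wild type arrays (adjusted p = 0.0153), with array weights (adjusted p = 0.0278) and without wild type control 3 (0.45, adjusted p = 0.0332). The brightest PRMT2 probe was higher in AE9a cells by 0.40 under either siRNA (adjusted p = 0.0333 under siPRMT1 and 0.0323 under control siRNA), with both calls lost when all probes were tested (adjusted p = 0.0659 and 0.0632) and the siPRMT1 call also with median scaling (0.37, adjusted p = 0.0643). Each call was lost in 5 of 12 fits without 1 array: under siPRMT1 without AE9a siPRMT1 2 or 3, AE9a control 3 or wild type siPRMT1 2 or 3 (adjusted p up to 0.158), and under control siRNA without any AE9a control or wild type control 2 or 3 (adjusted p up to 0.0993). The next PRMT2 probe was higher by 0.44 under siPRMT1 (adjusted p = 0.0154), a call lost without AE9a siPRMT1 3 or wild type siPRMT1 1 (adjusted p of 0.0507 and 0.0506). It had 0.27 under control siRNA (adjusted p = 0.121), and 0.39 without wild type control 1 (adjusted p = 0.0321). The dimmest had 0.17 and 0.24, which did not pass; with median scaling both of these probes passed under control siRNA (0.36 each, adjusted p = 0.0485 and 0.0441).

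The PRMT5 partners differed between lines under 1 siRNA each. CLNS1A was lower in AE9a cells by -0.54 ± 0.12 under siPRMT1 (adjusted p = 0.00352), and its value under control siRNA was -0.20 ± 0.12 (adjusted p = 0.260), or -0.32 (adjusted p = 0.0296) without wild type control 3. WDR77 had 0.11 ± 0.11 under siPRMT1 (adjusted p = 0.568) and was lower in AE9a cells by -0.50 ± 0.11 under control siRNA (adjusted p = 0.00456). For PRMT6 and PRMT7 no line difference passed: PRMT6 had 0.26 and 0.27 under siPRMT1 and -0.01 and 0.02 under control siRNA, with an SE of 0.21 each, and PRMT7 had 0.13 ± 0.13 and -0.30 ± 0.13. Without wild type control 3, the brightest PRMT6 probe had 0.32 under control siRNA.

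**Figure D4:**
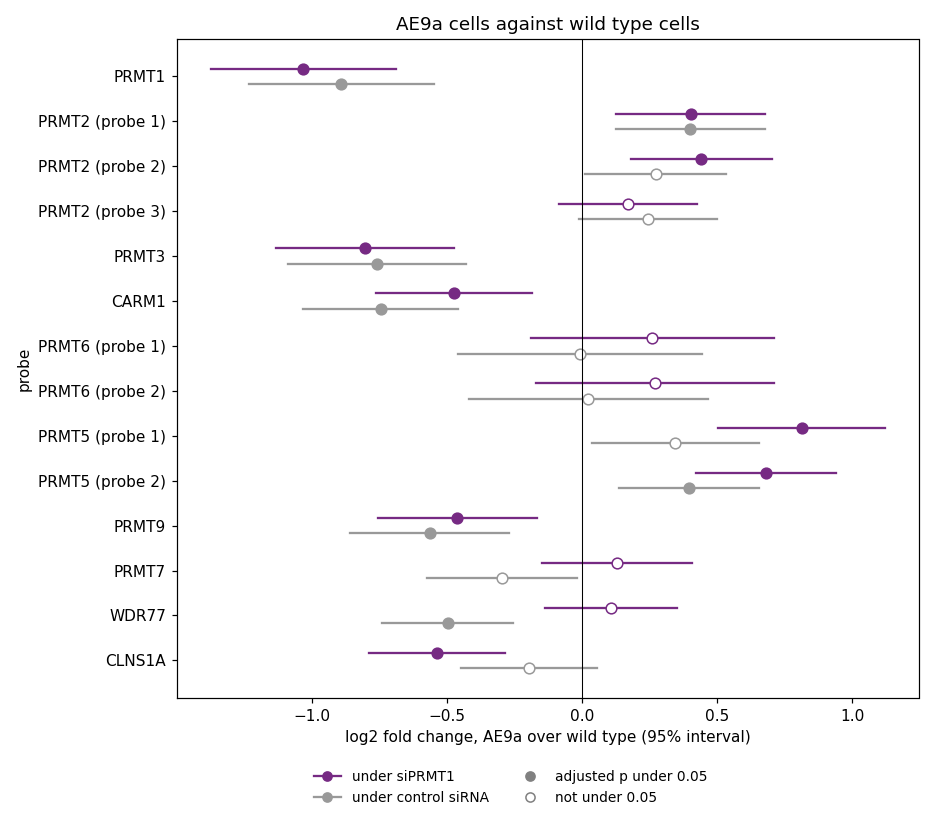
Difference between AE9a and wild type cells for each tested probe (log2, with its 95% interval from the limma fit), the value under siPRMT1 above that under control siRNA in each row, filled where the adjusted p is under 0.05. PRMT1 lies lowest, at -1.03 and -0.89, and the brighter PRMT5 probe highest, at 0.81 under siPRMT1.

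Further genes of the pathway were taken from lists of 35 genes, of which 34 were on the array and 32 were tested by their brightest probe. The lists, too, were chosen with earlier results of these data known, so their shares are a description. In AE9a cells 8 of 32 were higher under siPRMT1 and 3 lower, with a median of 0.15. Over all tested probes 6.42% were higher and 7.39% lower, with a median of 0.01. That wider share includes dim probes, whereas each list gene is given by its brightest probe. In wild type cells 0 of 32 were called. The methylosome list, adaptors and Sm substrates of PRMT5, had 3 of 6 higher, beside the same 6.42% over all probes. RIOK1, an adaptor that competes with CLNS1A for PRMT5, read 616.6, 721.4 and 733.7 in AE9a siPRMT1 arrays, against 445.8, 463.8 and 437.4 in AE9a controls. It rose by 0.66 ± 0.13 (adjusted p = 0.00573), while a further RIOK1 probe had 0.17 and did not pass. COPRS, which ties PRMT5 to histones, rose by 0.53 ± 0.14 (adjusted p = 0.0236), and SNRPD1, an Sm protein methylated by PRMT5, by 0.38 ± 0.12 (adjusted p = 0.0424). RIOK1 kept its call in all 12 fits without 1 array. COPRS lost it without AE9a siPRMT1 1 or 3 or AE9a control 1 or 2, and SNRPD1 without any 1 of the 6 AE9a arrays or wild type siPRMT1 2, and with median scaling (adjusted p = 0.0816) or all probes tested (adjusted p = 0.0925).

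The SMN complex loads methylated Sm proteins onto spliceosomal RNAs. In its list, which also holds methylarginine readers, 4 of 12 genes were higher and 1 lower under siPRMT1 in AE9a cells, beside 6.42% and 7.39% over all probes. GEMIN5, which recognizes the RNAs, read 349.9, 401.2 and 369.6 in AE9a siPRMT1 arrays, against 196.5, 214.5 and 201.8 in AE9a controls. It rose by 0.91 ± 0.12 (adjusted p = 4.26e-04), GEMIN6 by 0.65 ± 0.15 (adjusted p = 0.00986) and the helicase DDX20 by 0.45 ± 0.12 (adjusted p = 0.0214). GEMIN5 and GEMIN6 were called in all 12 fits without 1 array, and DDX20 lost its call in 4, those without AE9a siPRMT1 2 or 3 or AE9a control 1 or 3. GEMIN4 rose too, by 0.46 ± 0.13 (adjusted p = 0.0317), and SND1, a reader of symmetric dimethylarginine, fell by 0.43 ± 0.13 (adjusted p = 0.0417); these were not refitted without single arrays. GEMIN8 had -0.34 ± 0.11 by its brightest probe, which did not pass (adjusted p = 0.0509), and -0.40 ± 0.08 by another, which did (adjusted p = 0.00364).

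The genes that make and recycle S-adenosylmethionine, the methyl donor, had 0 of 7 called in AE9a cells under siPRMT1. MTRR had 0.30, AHCYL1 -0.18 and AHCY, which clears the product that inhibits methyltransferases, 0.17. MTAP, the salvage gene whose loss raises an inhibitor of PRMT5 and which K562 cells are known to lack, read 60.2 to 92.5 across arrays and was above the olfactory receptor level on 7 of the 12. Of the 2 tested enzymes outside the set, NDUFAF7 had 0.14 and METTL23 -0.24, neither called, and PRMT8, a brain enzyme, was too dim to be tested.

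Among modulators of PRMT1 and enzymes of methylarginine turnover, 1 of 5 was higher and 2 were lower under siPRMT1 in AE9a cells, beside the same 6.42% and 7.39%. BTG1, an antiproliferative protein that binds PRMT1, read 1590.3, 1435.5 and 1343.4 in AE9a siPRMT1 arrays, against 2980.7, 3042.8 and 3082.1 in AE9a controls. The wild type BTG1 signal was 3161.4, 2676.4 and 2583.8 under siPRMT1, against 3961, 2720.8 and 2536.3 in controls. It fell by 1.06 ± 0.14 in AE9a cells (adjusted p = 5.56e-04), where the groups were far apart, whereas they overlapped in wild type cells. The wild type BTG1 value was -0.16 ± 0.14, and the difference between lines was -0.90 ± 0.20, which did not pass (adjusted p = 0.0557 by limma). JMJD6 rose by 0.38 ± 0.11 (adjusted p = 0.0325), a call lost without AE9a siPRMT1 3, without any AE9a control, and with median scaling (adjusted p = 0.0658). PADI4, which converts arginine to citrulline, read 63.4, 65.6 and 61.0 in AE9a siPRMT1 arrays, not above background, against 122.2, 120.2 and 102.0 in AE9a controls. It was at least 1.46-fold lower under siPRMT1 (adjusted p = 2.46e-04).

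Between lines, the 32 list genes were 6 higher and 8 lower in AE9a cells under siPRMT1, beside 11.9% and 12.8% of all tested probes. Under control siRNA they were 3 higher and 10 lower, beside 13.2% and 13.4%. The S-adenosylmethionine list of 7 genes held 3 and 4 of these lower genes under siPRMT1 and control siRNA, with 0 higher under either. MTRR was among them by its brightest probe (-0.58 and -0.64), while its other tested probes were not called under either siRNA. The methylosome list had 2 higher genes, SNRPB and SNRPD1, and 2 lower genes, COPRS and LSM4, under either siRNA. COPRS read 1174.4, 1101 and 1249.8 in AE9a siPRMT1 arrays and 735.2, 789.3 and 917.6 in AE9a controls. Wild type arrays read 1616.1, 1551.5 and 1843.4 under siPRMT1 and 1271, 1226.6 and 1727.6 in controls. The COPRS line difference was -0.45 ± 0.14 under siPRMT1 (adjusted p = 0.0332 by limma) and -0.78 ± 0.14 under control siRNA (adjusted p = 9.09e-04).

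The genes whose profile over the 12 arrays was most like that of 3 members were found among 19053 probes with 1 symbol. The arrays fall into 2 lines, share 1 normalization and are no independent points, so Pearson's r is a description. Nearest to PRMT1 were CCDC90B, SMARCA2 and VEGFB, with r of 0.97, 0.96 and 0.96. Nearest to the brighter PRMT5 probe were SNRNP25, a protein of the minor spliceosome, the nucleolar helicase DDX21 and SMIM15, with r of 0.98 for each. Nearest to WDR77 were GRWD1, NCL and NOLC1, nucleolar or ribosome assembly proteins, with r of 0.96 for each. Their values under siPRMT1 in AE9a cells were 1.42, 0.82 and 0.94. The matching values were 0.61, 0.35 and 0.29 for the genes nearest to PRMT5, and -0.40, -0.53 and -0.18 for those nearest to PRMT1.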

How the data were processed

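Intensities of 12 BeadChip arrays were deposited by the authors as a non-normalized table with 1 raw intensity per probe, without detection p-values or control probes. The submitters' processing notes name GenomeStudio and give no version. A further deposited table holds the authors' processed intensities on a linear scale, normalized in a way that is not stated, and served as an alternative. Groups came from the sample titles. Probes were named through the platform annotation.

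Background was corrected with normexp (offset 50) and arrays were quantile normalized (limma 3.58.1, R 4.3.3). The test ran on the 28338 probes with a mean over the 40th percentile, with 1 mean per group over 12 arrays, an intensity trend in eBayes, and two-sided Benjamini-Hochberg adjustment over all tested probes within each of 5 contrasts (threshold 0.05). The procedure was tested on simulated data with independent noise in every array. Those data held no shared deviations of same-numbered arrays, so they could not check that part of the spread. The number of arrays limits the precision. Errors after ± are standard errors from the fit; raw intensities are given per array.

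All member probes are described; from each pathway list, up to 3 genes with the smallest adjusted p under siPRMT1 in AE9a cells are named by their brightest probe, and likeness follows Pearson's r. GEMIN4, SND1 and GEMIN8, LYZ, HBE1 and HBZ, COPRS between lines and MTAP were added after their values were seen. Members and lists were chosen with earlier results of these data known, and levels of different probes are not compared.

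Deviations of same-numbered arrays from their group means correlated at 0.578, 0.283 and 0.536 in wild type cells. In AE9a cells the values were -0.203, -0.296 and 7e-04. The labels name no pairing, so the wild type replicate block rests on a pattern read from these same arrays. Alternatives covered normalization, background, the starting table, filters, array weights, the variance trend, arrays of 1 line, the replicate block and each array left out. No 2 arrays were duplicates.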

Additional observations from a re-analysis of the deposited data

Results flagged for a closer look

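PADI4, a citrullinating enzyme of the turnover list, was called in the difference of the siPRMT1 effect between lines. The AE9a effect minus the wild type effect was -0.65 as fitted (log2, adjusted p = 0.0138 by limma). It was -0.99 with a normexp offset of 16 (adjusted p = 0.0219). As the AE9a siPRMT1 arrays were not above background, the fitted value is not the size of the difference. The wild type controls were not above background either, so a fall in wild type cells could not have been seen. The call therefore does not show that the siRNA acted differently in the lines. PADI4 read 63.4, 65.6 and 61.0 in AE9a siPRMT1 arrays, against 122.2, 120.2 and 102.0 in AE9a controls. Wild type arrays read 65.5, 74.1 and 63.7 under siPRMT1, against 68.2, 74.2 and 70.3 in controls. All 3 AE9a controls and 1 wild type siPRMT1 array were above the olfactory receptor level and the other 8 arrays were not. The call was kept without each of the 12 arrays in turn, with an adjusted p of at most 0.0463.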

How the results depend on the processing

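Of the 24 calls made for the 14 probes, 13 were kept without each of the 12 arrays in turn. Leaving out 1 array moved the count of all called probes under siPRMT1 from 2079 to 5086 in AE9a cells, from 0 to 850 in wild type cells and from 80 to 348 for the difference between lines. The matching counts among the 14 probes ran from 4 to 9, from 0 to 2, and stayed at 0. PRMT1 under siPRMT1 in AE9a cells ran from -0.69 to -0.55.

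With array weights, 7100 probes were called under siPRMT1 in AE9a cells and 455 for the difference. With AE9a arrays alone, 6571 were called in AE9a cells. Without an intensity trend, 473 were called for the difference, 1 of them among the 14 (WDR77). The replicate block over all arrays gave 403 for the difference. With the replicate block in wild type arrays alone, 6093 were called in AE9a cells, 14 in wild type cells and 1240 for the difference. The last again held 1 of the 14 member probes (WDR77). Beside WDR77 and the brighter PRMT5 probe under control siRNA, that block changed no call of the 14 member probes.

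Signs turned for values that had not passed. With median scaling, the next PRMT2 probe had -0.013 under siPRMT1 in AE9a cells, the dimmest PRMT2 probe 0.0088 and PRMT9 0.026 in wild type cells, and the brightest PRMT6 probe 0.070 between lines under control siRNA. In the difference, median scaling gave the brightest PRMT2 probe -0.10 and PRMT9 -0.017. With array weights, PRMT9 had 0.033 and CLNS1A -0.028 in wild type cells, the brightest PRMT6 probe 0.13 between lines and the brightest PRMT2 probe -0.030 in the difference. The authors' processed values gave that PRMT6 probe 0.0039.

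Without single arrays, values under siPRMT1 in AE9a cells ran from -0.072 to 0.12 and from -0.019 to 0.096 for the brightest and next PRMT2 probes. Those in wild type cells ran from -0.022 to 0.13 and from -0.14 to 0.034 for the brightest and dimmest PRMT2 probes, from -0.014 to 0.29 for PRMT3, from -0.14 to 0.062 for PRMT9, from -0.0047 to 0.19 for PRMT7, from -0.090 to 0.14 for CLNS1A and from -0.055 to 0.0062 for RUNX1T1. Between lines under control siRNA the tested PRMT6 probes ran from -0.24 to 0.32 and from -0.16 to 0.33. The difference ran from -0.11 to 0.075 and from -0.14 to 0.031 for those PRMT2 probes, from -0.20 to 0.11 for PRMT3, from -0.066 to 0.50 and from -0.059 to 0.43 for PRMT6, from -0.0024 to 0.21 for PRMT9 and from -0.018 to 0.25 for RUNX1. The causes were not tested. How signal over background limits each probe was not compared.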
